A study of Oryza sativa with 3 samples.

Results

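The miR156, miR529 and miR535 families were examined in small RNA from young panicles of japonica rice (Oryza sativa). All rows of the deposited count table whose name carries the family number of miR156, miR529 or miR535 were taken as members, which gave 9 of 367 rows, with 5 for miR156, 2 for miR529 and 2 for miR535. Small RNA was sequenced from 3 genotypes with 1 library each: wild type, the ld-1 mutant and the ld-2 mutant, all untreated. The series title places the lodiculeless phenotype in a mutation of the miR172b gene, and the sources used here do not give the lesion of each ld allele. The same holds for the panicle stage, the number of plants pooled and the growth place of each sample (greenhouse or field). For the miR172b sequence, 298 reads were counted in wild type, against 2 for ld-1 and 1 for ld-2.

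A miRNA guides an Argonaute protein to complementary transcripts, which are then cut or kept from translation. In rice, miR156 and miR529 target transcripts of SPL (squamosa promoter binding protein-like) transcription factors such as OsSPL14/IPA1, which shapes tillering and panicle branching, and miR535 has also been described as directed at SPL transcripts. miR156 is known as the marker of the juvenile phase and declines as a plant ages, while miR172, which acts downstream of SPL factors and represses AP2-like genes, increases. SPL transcripts and proteins were not measured here.

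The sequences of all 9 rows are shown because the names alone hide which strand of the precursor each row holds. Letters are those of the table, 5′ to 3′, with T for U, and capitals mark the seed (bases 2 to 8).
miR156a to miR156j: tGACAGAAgagagtgagcac
miR156k: tGACAGAAgagagagagcaca
miR156l: cGACAGAAgagagtgagcata
miR156c//miR156g: gCTCACTTctctctctgtcagc
miR156j: gCTCGCTCctctttctgtcagc
miR535, abundant sequence: tGACAACGagagagagcacgc
miR535, rare sequence: gTGCTTTCtcccgttgtcact
miR529b: aGAAGAGAgagagtacagctt
miR529a: cTGTACCCtctctcttcttc
The first sequence stood under 10 joined names, so reads from the miR156a to miR156j genes cannot be told apart.

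By seed, the rows fell into 1 group of 3 and 6 single rows. miR156a to miR156j, miR156k and miR156l share the seed GACAGAA, and no row of another family in the table carries it. Counting positions from 1 at the 5′ base, miR156k differs from miR156a to miR156j by T14A and an added last base, and miR156l by T1C, C20T and an added last base. The abundant miR535 sequence shares the first 5 bases with miR156a to miR156j and lies 5 edits from it. Bases 1 to 9 of miR529b are identical to bases 5 to 13 of miR156a to miR156j, and bases 1 to 13 of miR529b are identical to bases 5 to 17 of miR156k. The miR529b sequence is thus shifted along the common stretch, and its seed differs from that of miR156.

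The other 4 rows run in the opposite orientation. miR529a lies 16 edits from miR156a to miR156j as written and 7 edits as its reverse complement. Its bases 8 to 18 are complementary to bases 1 to 11 of miR529b. Bases 12 to 19 of the rare miR535 sequence are complementary to bases 1 to 8 of the abundant one. The 22-base miR156j row is complementary to bases 1 to 8 of miR156a to miR156j over its bases 13 to 20, and the miR156c//miR156g row to bases 1 to 7 over its bases 14 to 20. Between themselves these last rows differ by A5G, T8C and C13T, from miR156c//miR156g to miR156j. Precursor arms are not named in the table, and a family label of SPL targeting need not hold for rows in this orientation.

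Depth set the precision. The wild type library had 116818 miRNA reads, that of ld-1 had 140807 and that of ld-2 had 66642. Levels are given as scaled RPM, read counts relative to library size (conventional RPM units) after normalisation with trimmed M values (TMM), where a single read stood for 8.37, 7.94 and 13.7 RPM. Each level and log2 ratio carries an exact 95% interval for counting error alone. With 1 library per genotype there was no spread between plants, no test between genotypes and no p-value. A sequence was compared when it had at least 30 reads over the 3 libraries, and it was called higher or lower when its ratio was at least 2-fold and its interval excluded 1. Among the members 4 of 9 met this minimum, and the 5 others were too rare to be compared alone. The 3 families together took 2.10% of the wild type reads, 1.30% of the ld-1 reads and 1.43% of those of ld-2.

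miR156 was the family that stood apart in ld-2. Wild type gave 458 reads of the miR156a to miR156j sequence, ld-1 gave 464 and ld-2 gave 92. Its level was 3833 RPM (3490 to 4201) for wild type, 3684 RPM (3357 to 4035) for ld-1 and 1263 RPM (1018 to 1549) for ld-2. The first pair of intervals overlapped widely, and that of ld-2 lay below both. The sequence was 3.04-fold lower in ld-2 than in wild type (log2 ratio -1.60, 95% interval -1.94 to -1.28) and 2.92-fold lower than in ld-1 (log2 -1.54, -1.88 to -1.22). Against wild type, ld-1 was at log2 -0.06 (-0.25 to 0.13), an interval that leaves room for a level 0.843 to 1.10 times that of wild type. In bulk tissue, fewer cells that make a miRNA and less of it per cell cannot be told apart.

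Of the remaining miR156 rows, none went past 2 reads in any library. The miR156c//miR156g row had 1 wild type read, 2 ld-1 reads and 2 ld-2 reads. The 22-base miR156j row had a single read, from ld-2. No read was counted for miR156k or miR156l. Their exact 95% intervals reached up to 30.9 RPM for wild type, 29.3 RPM for ld-1 and 50.6 RPM for ld-2. The miR156 reads of these panicles thus came almost wholly from 1 sequence, which held 458 of 459, 464 of 466 and 92 of 95 reads of the family.

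**Figure D1:**
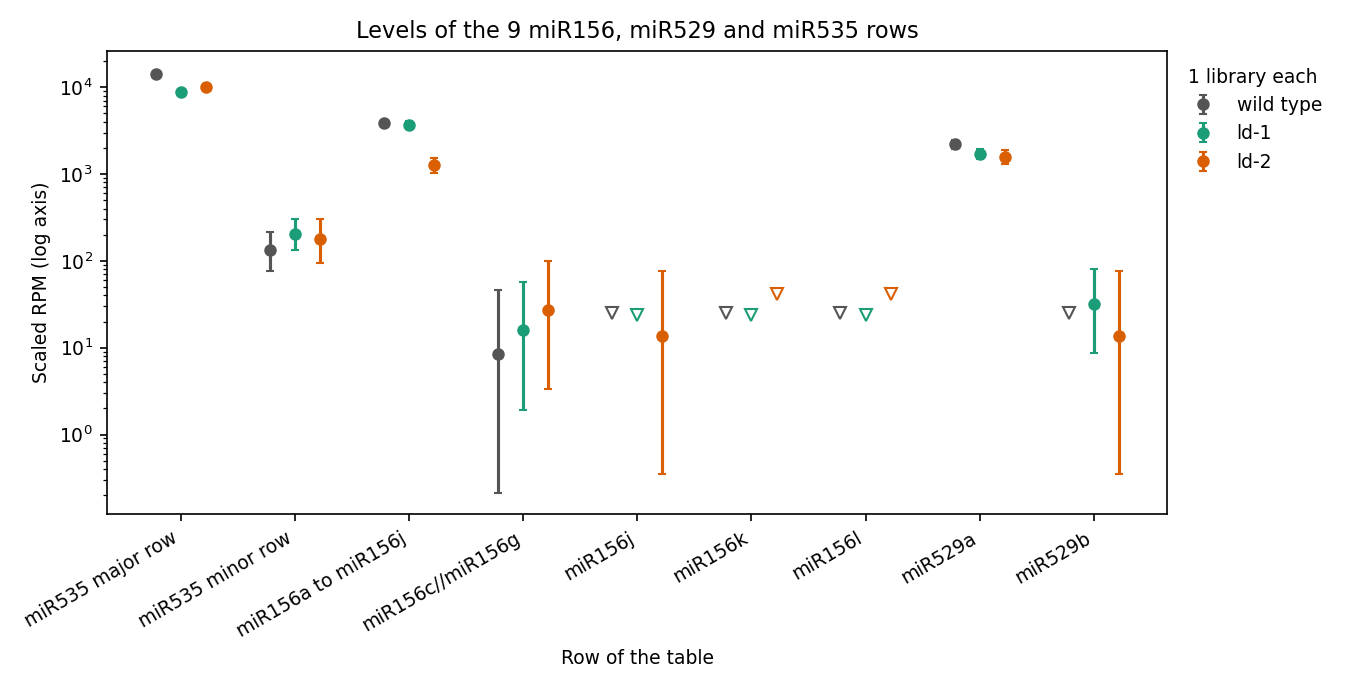
Scaled RPM (log axis) of the 9 rows for wild type (grey), ld-1 (green) and ld-2 (orange), 1 library each. Points are levels with exact 95% Poisson intervals, open triangles mark the floor of 3 counts where no read was counted, and major and minor row stand for the abundant and the rare miR535 sequence; the ld-2 point of miR156a to miR156j, 1263 RPM, lies below those of ld-1 and wild type, 3684 and 3833.

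Of the 3 families, miR535 was the most abundant in each library and was lower in both mutants by less than 2-fold. Its abundant sequence was read 1713 times in wild type, against 1116 times for ld-1 and 732 times for ld-2, which placed it at rank 9, 9 and 11 among all sequences of the libraries. In RPM it was at 14338 (13667 to 15033), 8862 (8349 to 9397) and 10047 (9332 to 10802). Wild type was the highest and ld-1 the lowest, with the ld-2 interval just overlapping that of ld-1. For ld-1 the log2 ratio to wild type was -0.69 (-0.80 to -0.58), and for ld-2 it was -0.51 (-0.64 to -0.39), or 1.62-fold and 1.43-fold lower. Between the mutants the level was slightly higher in ld-2, at log2 0.18 (0.04 to 0.32). This depended on the scaling, as the interval included 0 with DESeq2 size factors (-0.02 to 0.25).

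For the rare miR535 sequence no difference in level went beyond counting error. Wild type had 16 of its reads, ld-1 had 26 and ld-2 had 13, or 134 RPM (76.5 to 217), 206 RPM (135 to 303) and 178 RPM (95.01 to 305), and these intervals overlapped. Its log2 ratios to wild type, 0.62 for ld-1 (-0.33 to 1.62) and 0.41 for ld-2 (-0.76 to 1.56), both had intervals that included 0. Its share of the reads of both miR535 sequences was 0.925% for wild type (exact binomial interval 0.530% to 1.498%), 2.28% for ld-1 (1.49% to 3.32%) and 1.74% for ld-2 (0.932% to 2.97%). The ratio of rare to abundant reads was 2.49-fold higher in ld-1 than in wild type (1.28 to 4.999) and 1.90-fold higher in ld-2, where the interval of 0.836 to 4.24 included 1. This within-family ratio does not depend on the scaling between libraries and was chosen after the counts were seen.

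miR529 stayed within 2-fold in each comparison. Nearly all its reads belonged to miR529a, the row in the opposite orientation, which was read 262 times in wild type, against 216 for ld-1 and 114 for ld-2. The levels were 2193 RPM (1935 to 2475), 1715 RPM (1494 to 1960) and 1565 RPM (1291 to 1880). Wild type was the highest, its interval overlapping that of ld-1 slightly and that of ld-2 not at all. Relative to wild type, ld-1 was at log2 -0.35 (-0.62 to -0.09) and ld-2 at log2 -0.49 (-0.82 to -0.16), short of 2-fold in both. Between the mutants it was -0.13 (-0.47 to 0.20).

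The miR529b row, whose sequence overlaps that of miR156, was close to absent. Wild type had 0 reads of it, ld-1 had 4 and ld-2 had 1, and no difference between the libraries was detectable at this depth. In wild type the floor of 3 counts allows it up to 25.1 RPM, against 2193 RPM for miR529a. Counted over the rows in the orientation of miR156a to miR156j, miR529 thus had 0, 4 and 1 reads, miR156 had 458, 464 and 92, and miR535 had 1713, 1116 and 732.

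Compared with each other inside each library, the families kept miR535 first in all 3 libraries. miR156 was above miR529 in wild type and ld-1, and their order was not settled in ld-2. All rows summed, miR535 had 3.77 reads for each miR156 read in wild type (3.40 to 4.18), whereas ld-1 had 2.45 (2.20 to 2.74) and ld-2 had 7.84 (6.33 to 9.81). For each miR529 read there were 1.75 miR156 reads in wild type (1.502 to 2.05), and ld-1 had 2.12 (1.80 to 2.498). In ld-2 this ratio was 0.826 (0.623 to 1.09), from 95 and 115 reads, so the order of miR156 and miR529 in ld-2 lay within counting error. Read numbers of different sequences need not be proportional to their molecules, as ligation and amplification can favour some sequences.

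As shares of the reads of the 3 families, miR535 held 70.6% for wild type (68.7% to 72.4%), 62.5% for ld-1 (60.2% to 64.7%) and 78.0% for ld-2 (75.2% to 80.6%). miR156 held 18.7% (17.2% to 20.3%), 25.5% (23.5% to 27.6%) and 9.95% (8.12% to 12.0%). Neither family's intervals overlapped between any of the libraries, with miR156 taking its largest share in ld-1 and its smallest in ld-2. miR529 held 10.7% (9.50% to 12.0%), 12.0% (10.6% to 13.6%) and 12.0% (10.0% to 14.3%), and its intervals overlapped throughout. Without the rows in the opposite orientation, miR529 held 0% (wild type), 0.253% (ld-1) and 0.121% (ld-2). miR156 then held 21.1%, 29.3% and 11.2%, and miR535 78.9%, 70.5% and 88.7%.

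**Figure D2:**
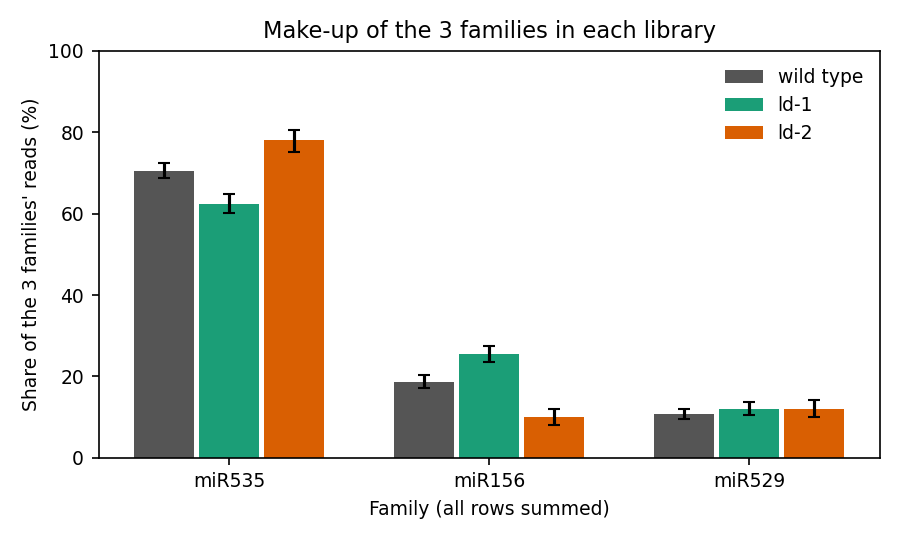
Share of the reads of the 3 families (percent) held by miR535, miR156 and miR529, all rows summed, in the single library of each genotype. Error bars are exact 95% binomial intervals; the miR156 bars stand at 18.7%, 25.5% and 9.95%, in the order wild type, ld-1, ld-2, and those of miR529 between 10.7% and 12.0%.

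The ratio of 2 families within a library is free of the scaling between libraries, so its change was used to compare the families across genotypes, for 3 pairs of families and 3 pairs of libraries. The miR156 to miR535 ratio was higher in ld-1 than in wild type, by log2 0.62 (0.40 to 0.84), and lower in ld-2, by log2 -1.06 (-1.42 to -0.71). In ld-1 the miR156 reads stayed near the wild type level while the miR535 reads were fewer, and in ld-2 both were fewer and miR156 more so. Between the mutants the ratio was 3.20-fold lower in ld-2 than in ld-1 (log2 -1.68, -2.04 to -1.33).

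Relative to miR529, miR156 was lower in ld-2 than in wild type by log2 -1.08 (-1.55 to -0.62), and lower than in ld-1 by -1.36 (-1.83 to -0.88). In ld-1 against wild type the value was 0.27 with an interval that included 0 (-0.05 to 0.60). The ratio of miR529 to miR535 was at log2 0.03 in ld-2 against wild type (-0.33 to 0.37). It was at 0.35 in ld-1 (0.06 to 0.63) and at -0.32 between the mutants (-0.68 to 0.04). The values for miR529 rest on miR529a, the row in the opposite orientation. With only the rows in the orientation of miR156a to miR156j, the miR156 to miR529 ratio was at log2 -0.33 between the mutants (-3.69 to 5.30), from 4 and 1 reads of miR529b, and had no value against wild type, where miR529b had 0 reads. The comparisons with wild type share its single library.

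**Figure D3:**
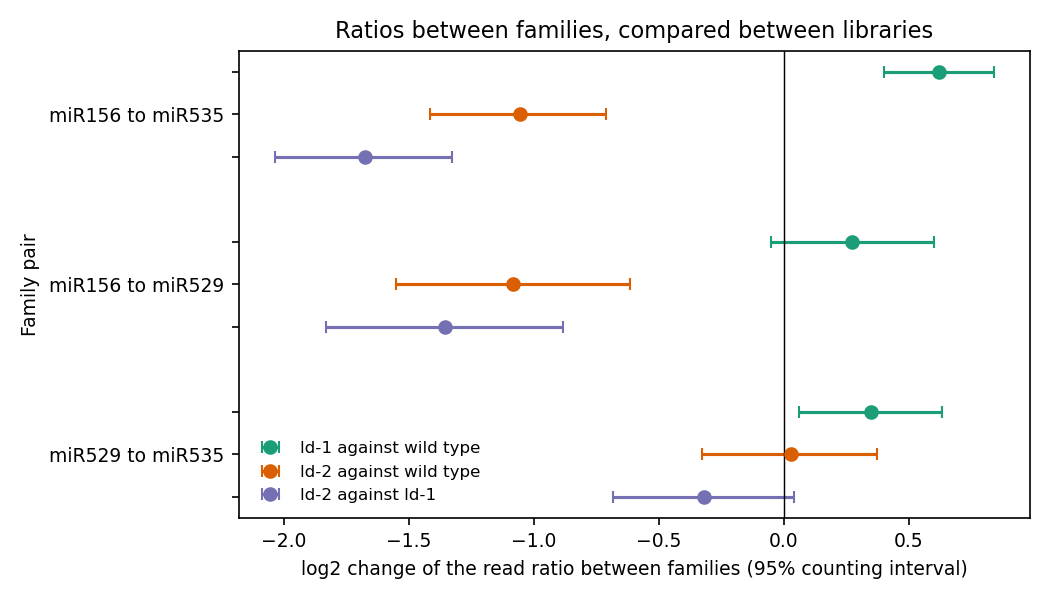
Change of the read ratio between 2 families (log2, x axis) for each pair of families (y axis) and each pair of libraries (colours), with exact 95% intervals for counting error. Ratios that involve miR156 lie left of 0 in both comparisons of ld-2, from -1.68 to -1.06, and the miR156 to miR535 ratio lies right of 0 in ld-1, at 0.62.

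Set against all 109 sequences compared, the miR156 value in ld-2 was at the low end. miR156a to miR156j ranked 2 from the lowest in ld-2 against wild type and 2 in ld-2 against ld-1. In ld-2 against wild type 1 of the 4 members compared was called lower, where 7.34% of all sequences were called lower and 28.4% in either direction. Against ld-1 the same member was called lower, with 5.5% of all sequences called lower and 24.8% in either direction. In ld-1 against wild type 0 of 4 were called, against 10.1% of all sequences, 6.42% of them higher and 3.67% lower. The abundant miR535 sequence ranked 8 from the lowest there without reaching 2-fold, and at a threshold of 1.5-fold it was the 1 of 4 members called lower, where 8.26% of all sequences were called lower and 15.6% in either direction. Against wild type the median log2 ratio of the 4 members was -0.21 for ld-1 and -0.50 for ld-2, beside -0.06 and 0.03 over all sequences compared. With so few members a share of calls cannot be set apart from the background.

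**Figure D4:**
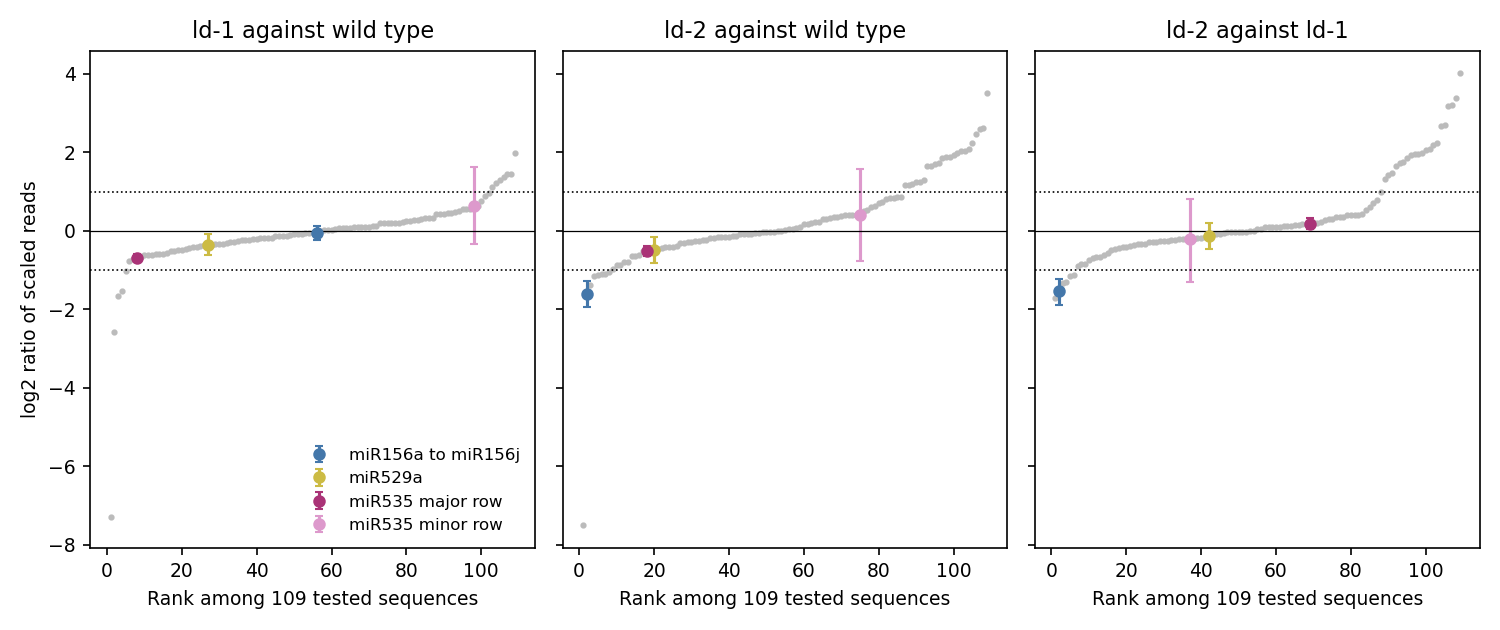
log2 ratio of scaled reads (y axis) of the 109 sequences compared, ranked from lowest to highest (x axis), in each comparison. Grey points are other sequences, coloured points the 4 members with exact 95% intervals, and dotted lines mark 2-fold; miR156a to miR156j stands at rank 2 in both panels of ld-2 (-1.60 and -1.54) and near 0 in ld-1 (-0.06).

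In the age pathway miR172 acts downstream of the SPL factors. Of 4 miR172 rows, 3 could be compared, and miR172b was the 1 called lower in each mutant. Of all sequences compared, 3.67% were called lower in ld-1 and 7.34% in ld-2, both against wild type. The sequence shared by miR172a and miR172d had 522 wild type reads, 603 ld-1 reads and 229 ld-2 reads, the other miR172d sequence 115, 80 and 45, and miR172c none. This other miR172d sequence was at 635 RPM for ld-1 and 618 RPM for ld-2. Between the mutants its log2 ratio was -0.04 (-0.60 to 0.50), within counting error. Summed without miR172b, the miR172 sequences were at 5332 RPM for wild type, 5423 RPM for ld-1 and 3761 RPM for ld-2. In scaled level this sum and miR156 were both lowest in ld-2, but not in proportion. There were 0.721 miR156 reads for each of these miR172 reads in wild type, against 0.682 for ld-1 and 0.347 for ld-2. The change from wild type was log2 -0.08 for ld-1 (-0.33 to 0.17) and -1.06 for ld-2 (-1.45 to -0.67). With miR172b included the ld-1 value was 0.47 (0.23 to 0.71) and the ld-2 value -0.51 (-0.90 to -0.13). miR535 per miR172 read without miR172b was at log2 -0.70 for ld-1 (-0.89 to -0.51) and between -0.24 and 0.25 for ld-2. These ratios were added after the counts were seen.

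The sequences whose levels ran most like those of each member over the 3 libraries were sought among the 72 with at least 100 reads, by the Euclidean distance between log2 levels centred on each sequence's mean. For miR156a to miR156j the nearest were miR159f, miR319a and miR166k, at distances of 0.363, 0.449 and 0.564. miR159f, of a family that targets GAMYB factors, was at 1289 RPM for wild type, 1485 RPM for ld-1 and 604 RPM for ld-2. miR319a, listed under a family directed at TCP factors, was at 703, 1032 and 316 RPM. miR166k, of a family that targets HD-ZIP III factors, was at 1440, 1795 and 824 RPM. All were lowest in ld-2, as miR156 was, which their choice by likeness to miR156 favours. Their log2 ratios of ld-1 to wild type were 0.20, 0.55 and 0.32, beside -0.06 for miR156.

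miR529a ran closest to the sequence joined under miR164a to miR164f (distance 0.0471), which targets NAC factors and had 575, 480 and 262 reads. After it came the more abundant miR160e sequence (0.129) and miR2871a//miR2871b (0.151). The abundant miR535 sequence was nearest to the less abundant miR444b//miR444c sequence (0.102), of a monocot family directed at MADS-box transcripts, with 624, 442 and 265 reads. Next were the rarer miR172d sequence (0.152) and again miR164a to miR164f (0.262). With 3 libraries many sequences can fall close together, so these distances describe the libraries only.

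Another group of miRNAs set ld-2 apart. The miR2118 and miR2275 rows, triggers of phased siRNAs in developing grass inflorescences and anthers, went from 1293 wild type reads and 1208 ld-1 reads to 2880 ld-2 reads, or 10823, 9592 and 39530 RPM. Of these 13 rows 12 could be compared, all of them miR2118 rows, and all 12 were called higher in ld-2 than in wild type. Over all 109 sequences compared, with these 12 included, 21.1% were called higher in ld-2 than in wild type. The remaining row, miR2275d, had 1 read in wild type and none in the mutants. It was the only miR2275 row, so the higher level in ld-2 holds for miR2118 and could not be assessed for miR2275. The part of the miR2118 and miR2275 rows in the lower miR156 level was not tested. Panicle stage and genotype cannot be told apart with 1 library each. When these rows were left out of the scaling, the summed miR156 reads were at log2 -1.44 in ld-2 against wild type (-1.77 to -1.11), beside -1.56 (-1.89 to -1.24) with them.

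Over the 6 other scalings and treatments of the counts the family sums kept their direction against wild type in ld-2. miR156 ranged from -1.76 to -1.44, miR529 from -0.68 to -0.35 and miR535 from -0.71 to -0.38. In ld-1, miR535 ranged from -0.87 to -0.66 and miR529 from -0.52 to -0.10. The miR529 interval in ld-1 included 0 in libraries thinned to equal depth (-0.47 to 0.27). miR156 in ld-1 lay between -0.25 and 0.01, turning just above 0 in libraries thinned to equal depth, so no direction is given for it. With RPM of all miRNA reads the miR156 interval in ld-1 excluded 0 (-0.44 to -0.06). Between the mutants the miR535 value stayed above 0 (0.06 to 0.46) and that of miR156 below it (-1.62 to -1.22). The miR535 interval included 0 with DESeq2 size factors (-0.03 to 0.24) and without the 5 most abundant features (-0.07 to 0.20). Between the mutants miR529 turned from -0.15 to 0.14 with RPM of all miRNA reads.

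**Figure D5:**
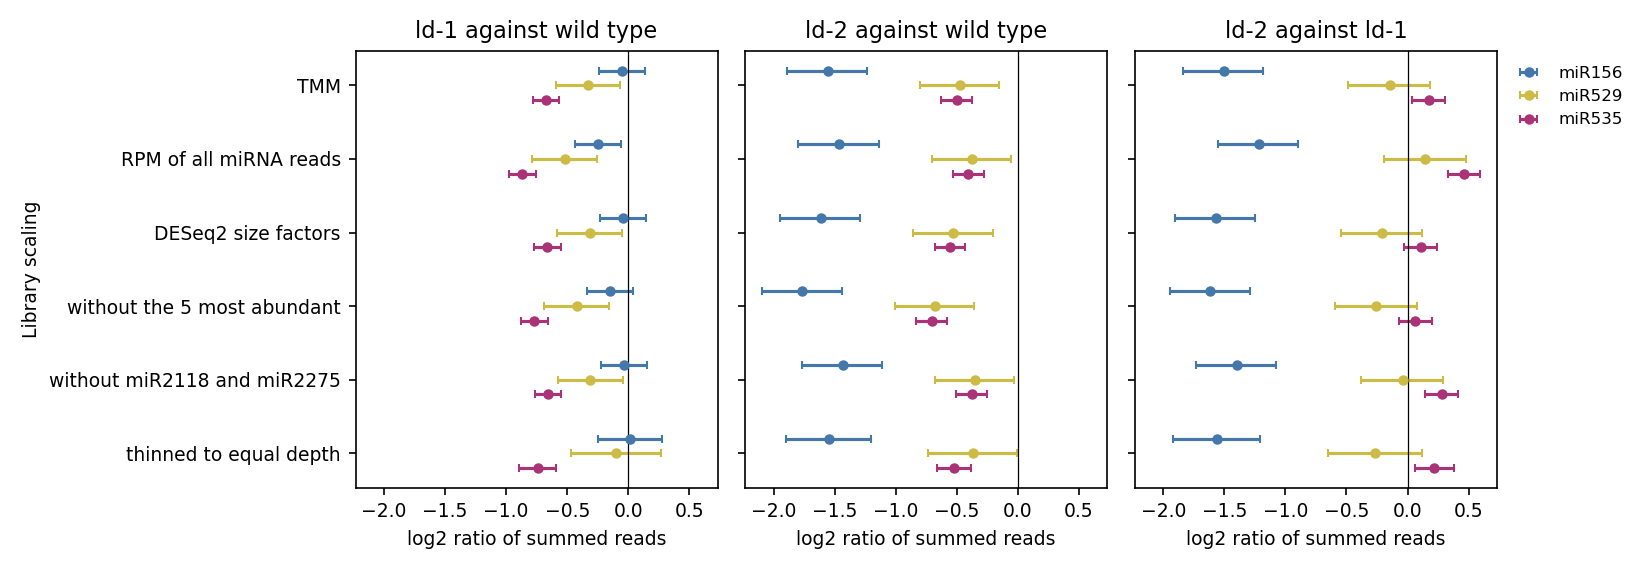
log2 ratio of the summed reads of each family (x axis, exact 95% intervals) under 6 ways of scaling the libraries (y axis), in each comparison. The miR156 points stay between -1.76 and -1.44 in ld-2 against wild type, and the miR535 points between -0.87 and -0.66 in ld-1.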

How the data were processed

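The authors deposited a table of unnormalised counts of reads (per the file headers), in which rows are mature miRNA sequences and columns are the 3 libraries. Trizol extraction, gel selection of small RNA, NEXTFlex v3 libraries and MiSeq sequencing are recorded in the labels' protocols. Trimming, mapping, the division of reads between close sequences and the miRNA release were not given in the sources used here. Libraries were scaled by TMM (edgeR 4.0.16, R 4.3.3) on the 109 sequences with at least 30 reads, giving factors of 1.02, 0.894 and 1.09 for wild type, ld-1 and ld-2. Ratios carry exact Clopper-Pearson intervals, and ratios between families exact conditional intervals (Python 3.11.15, scipy 1.17.1). Sequences were compared with edlib 1.3.9.post1. A count of 0 was set against a floor of 3 counts. Intervals and floors cover counting error only, as reads are not independent molecules. Ratios and intervals were tested on simulated Poisson counts only, which hold no spread between plants and so cannot bear on it. Every member row was named, with the 3 nearest patterns for members of at least 100 reads and every miR172 row; for the distances 0.5 reads were added to each count. DESeq2 1.42.0 size factors were an alternative. Members and lists were chosen with earlier results of these data known.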

Additional observations from a re-analysis of the deposited data

Results flagged for a closer look

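The miR156 to miR535 read ratio was higher in ld-1 than in wild type (log2 0.62, 0.40 to 0.84) and lower in ld-2 (log2 -1.06, -1.42 to -0.71), so the mutants lay on opposite sides of wild type, with a log2 change of -1.68 from ld-1 to ld-2. The difference was not tested against the spread between plants.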

How the results depend on the processing

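Each result was recomputed under other scalings, thresholds and row selections. miR156a to miR156j was the member called lower in both comparisons of ld-2 under all 11 alternatives for calls. At a 1.5-fold threshold 1 of 4 members was called in ld-1, against 0, while the share of all compared sequences called went from 10.1% to 15.6%. With RPM of all miRNA reads the ld-1 ratio was -0.25 for miR156 and -0.87 for miR535, and miR535 was at 0.46 between the mutants; without the 5 most abundant features miR535 was at -0.71 in ld-2. This RPM scaling moved the median over all compared sequences by -0.19 (ld-1), 0.10 (ld-2) and 0.29 (between mutants), leaving out the 5 most abundant features by -0.10, -0.21 and -0.11, and leaving out miR2118 and miR2275 by 0.02, 0.12 and 0.11. In thinned libraries the miR529 to miR535 ratio was 0.64 in ld-1. Keeping only rows in the orientation of miR156a to miR156j, an alternative added after seeing the data, gave shares in wild type of 21.1% for miR156, 0% for miR529 and 78.9% for miR535. In ld-1 they were 29.3%, 0.253% and 70.5%, and in ld-2 miR529 had 0.121% and miR535 88.7%. miR529b alone then stood for miR529, with 0, 4 and 1 reads. Its log2 ratio of ld-1 to wild type was 0.34 with the 0 set at the floor of 3 counts, and the 95% interval reached down to -0.68, so no difference was detectable. Between the mutants it was at -1.21 (-6.83 to 2.13). The ratios between the mutants were -0.33 (-3.69 to 5.30) for miR156 to miR529, which ends the call at -1.36, and -1.39 (-7.02 to 1.95) for miR529 to miR535, and no miR529 ratio of ld-2 to wild type could be had from 1 and 0 reads. The cause of these shifts was not tested beyond the rows or reads each setting leaves out. No replicate could be left out. No paired analysis was possible because each genotype had 1 library. Depth limits the 5 rare rows, and ld-2, the shallowest library, most.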
